A study of Mus musculus with 4 samples.

Results

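Foxa1, Foxa2, Foxa3, Hnf4a, Onecut1, Onecut2, Cebpa and Prox1 encode core transcription factors of hepatocyte identity, and Hnf4a is the only nuclear receptor gene among them. They were taken by symbol from the table of transcript levels, which held all 8 among 52630 gene identifiers. The libraries came from AML12, an immortal line of mouse hepatocytes established from animals transgenic for human TGF-alpha. Cells were infected with 200 µl of concentrated lentivirus for either a control short hairpin (the shCtrl group) or a short hairpin that targets Topors (the shTopors group), and each group has 2 libraries. All cultures were kept in 10% serum with an insulin, transferrin and selenium type supplement and 0.1 µM dexamethasone, a synthetic glucocorticoid, and were collected after 5 days. Topors encodes an E3 ligase for ubiquitin and SUMO, and the study's title calls its product a tumor suppressor and concerns its part in large-scale chromatin structure. Whether the 2 libraries of a group are separate cultures is not stated in the labels, and p-values therefore reflect only library-to-library spread, which may be technical.

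Hepatocyte identity is held by a small network of DNA-binding proteins that regulate each other's genes. FOXA proteins are forkhead pioneer factors that bind nucleosomal DNA and make liver enhancers accessible, HNF4A is a nuclear receptor that drives a large share of hepatocyte genes, and C/EBP-alpha is a basic leucine zipper factor of metabolic maturation. The cut-homeodomain factors ONECUT1 (also called HNF6) and ONECUT2 act in hepatoblasts and in bile duct formation, and the homeodomain factor PROX1 acts in hepatoblast migration and in restraint of bile acid synthesis genes.

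Promoter sequences are shown for 6 of the factors, to set the start regions of genes with lower knockdown levels beside those of genes with overlapping levels. RefSeq windows (GRCm38.p6, 250 bases before to 50 after an annotated start) were used for 7 factors, with 11 starts in all. Onecut2 was left out of the windows, so its start region was not examined. Each stretch below is the 150 bases nearest to the start that lie before it and outside the gene's GENCODE exons, read 5′ to 3′ on the gene's strand, with motif matches in capitals. The stretches are chr12:57546122-57546271 (minus strand) for Foxa1, chr9:74861771-74861920 (plus) for Onecut1, chr7:35119143-35119292 (plus) for Cebpa and chr1:190170828-190170977 (minus) for Prox1. Those of the factors with overlapping levels are chr2:163547005-163547154 (plus) for the downstream start of Hnf4a and chr7:19023540-19023689 (minus) for Foxa3. The RefSeq start of Foxa1, 57546111, lies inside the gene's GENCODE span of 57540628 to 57546916, so the Foxa1 stretch lies within that span.
Foxa1: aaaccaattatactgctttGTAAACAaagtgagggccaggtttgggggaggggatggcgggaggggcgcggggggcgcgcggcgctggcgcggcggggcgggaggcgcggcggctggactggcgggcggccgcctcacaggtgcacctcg
Onecut1: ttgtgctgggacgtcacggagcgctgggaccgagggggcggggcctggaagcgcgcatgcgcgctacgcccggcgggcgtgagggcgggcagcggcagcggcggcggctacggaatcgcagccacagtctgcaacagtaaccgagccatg
Cebpa: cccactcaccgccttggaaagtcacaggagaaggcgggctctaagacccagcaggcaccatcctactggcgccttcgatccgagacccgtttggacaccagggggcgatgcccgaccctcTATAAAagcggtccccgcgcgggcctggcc
Prox1: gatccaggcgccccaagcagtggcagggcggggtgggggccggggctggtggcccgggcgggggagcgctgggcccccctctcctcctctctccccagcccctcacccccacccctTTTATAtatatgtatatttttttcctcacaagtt
Hnf4a: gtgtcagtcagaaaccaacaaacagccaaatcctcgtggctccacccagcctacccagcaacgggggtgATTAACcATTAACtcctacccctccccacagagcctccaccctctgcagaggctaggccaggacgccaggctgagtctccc
Foxa3: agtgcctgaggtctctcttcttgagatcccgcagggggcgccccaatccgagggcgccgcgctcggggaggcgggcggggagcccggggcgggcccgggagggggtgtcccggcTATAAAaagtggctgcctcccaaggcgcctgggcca

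Both strands of each whole 300-base window were searched for 13 motifs. For forkhead factors the letters were TGTTTAC, the related form TATTTAC and the further form TGTTTGC. For HNF1 they were the full palindromic motif, given here by name, and its part GTTAAT, which overlaps it. For HNF4 they were CAAAGTCCA as well as the form AGGTCAAAG, and for C/EBP factors TTGCGCAA with its variants TTGCACAA as well as TTGCGTAA. For ONECUT factors they were ATCGAT as well as the longer ATTGATTT, and TATAAA stood for the TATA box. The Foxa1 window held forkhead TGTTTAC on the opposite strand, its first base as printed at position -141 where -1 is the base before the start, and 3.65% of all 32851 windows held that motif. The downstream Hnf4a window held GTTAAT on the opposite strand at -81 and at -74, a motif found in 7.1% of all windows. TATAAA lay on the gene's strand at -36 in Foxa3 and at -30 in Cebpa, and on the opposite strand at -34 in Prox1, with 13.6% of all windows holding it. The second Prox1 start had forkhead TGTTTGC at -120 (5.07% of windows) and the first Foxa2 start had ONECUT ATTGATTT at -213 (1.2% of windows). The third Foxa2 start had GTTAAT at -176 and TATAAA at -208, both on the opposite strand. In 3 windows, those of Onecut1, the second Foxa2 start and the upstream Hnf4a start, no motif matched. CpG dinucleotides numbered 26 in the Foxa1 window, 38 in Onecut1, 29 in Cebpa and 25 and 14 in the first and second Prox1 windows, against a median of 7 over all windows. They numbered 4 in both Hnf4a windows, 22 in Foxa3 and 12, 23 and 13 in the Foxa2 windows. Levels were summed per gene, so the transcripts of separate starts, such as the upstream and downstream starts of Hnf4a, were not told apart.

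Levels are given in TPM, a length- and library-scaled abundance that can be compared between genes but keeps no read depth, so the depth is unknown. Differences are shTopors minus shCtrl in log2(TPM + 1), which understates the change of low genes, from limma's fit over the 13509 genes that averaged 1 TPM or more, with p-values adjusted by the Benjamini-Hochberg method over all of them. Topors itself was at 25.6 ± 5.16 TPM with the control hairpin and 4.48 ± 0.242 TPM with the Topors hairpin (SD, n = 2), lower in both knockdown libraries, with a log2 difference of -2.27 (SE 0.288, adjusted p = 0.0823 in limma's test). The log2 differences between libraries of a group had an SD over genes of 0.429 in shCtrl and 0.688 in shTopors. The median difference of all genes was -0.18, against -0.01 with median-of-ratios size factors, so a difference is also given as its excess over the median of all genes. Past an adjusted p of 0.05, 4 genes were lower (0.0296% of genes tested) and 1 higher (0.0074%), which is 0.037% in either direction. In bulk RNA, fewer cells of a type and less RNA per cell cannot be told apart.

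No factor passed the adjusted threshold in either direction, and the 8 fell into a set of 5 with levels below both controls and a set of 3 with overlapping levels. Foxa1, Onecut1, Onecut2, Cebpa and Prox1 were lower in both shTopors libraries than in both shCtrl libraries, while Foxa2, Foxa3 and Hnf4a overlapped. Of all genes tested, 35.2% lay below both controls and 14.6% above both. Those 5 factors also had an unadjusted p under 0.05, which 10.7% of genes tested reached on the lower side and 3.98% on the higher side, and a log2 difference below -1, which 5.54% reached, with 2.1% above 1. Proliferation markers moved with the groups as well, with all 8 above both controls, and their part in the factor levels was not tested. All 8 factors had a negative log2 difference, as did 65.9% of genes tested. The median log2 difference of the 8 was -1.20, an excess of -1.01 over the median of all genes.

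**Figure D1:**
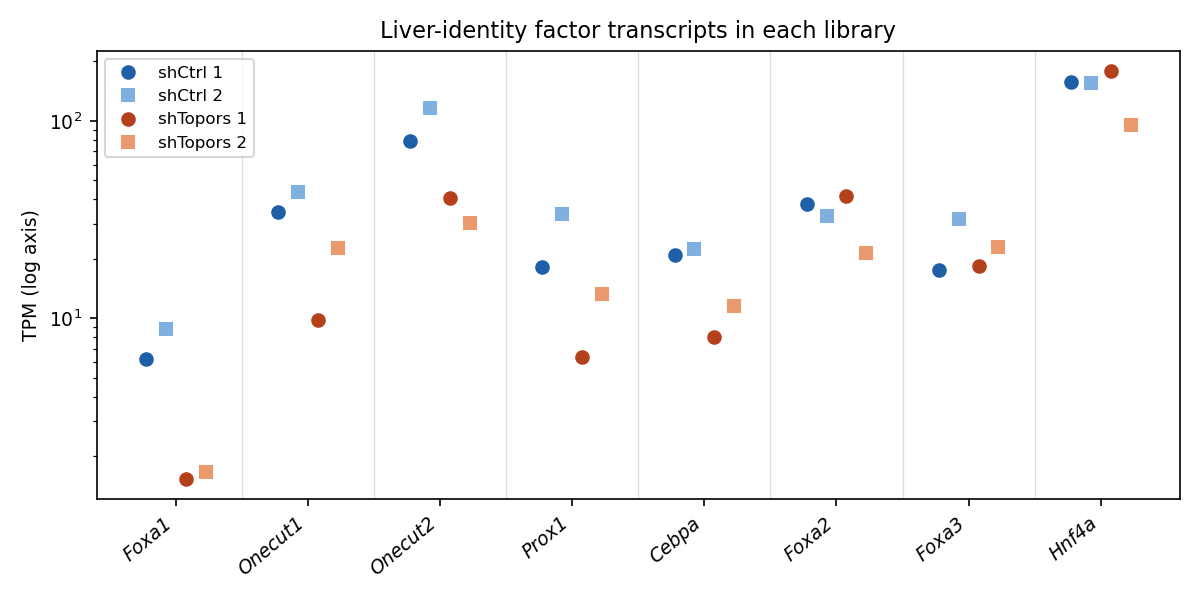
TPM of each factor in each library on a log axis, with shCtrl libraries in blue and shTopors libraries in orange and circles and squares for replicates 1 and 2. In the 5 genes at left both shTopors points lie below both shCtrl points, while in Foxa2, Foxa3 and Hnf4a the groups overlap.

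In shCtrl the factors spanned a wide range of levels, with Hnf4a highest at 157 ± 1.18 TPM (SD, n = 2) and Foxa1 lowest at 7.50 ± 1.83 TPM. Hnf4a stood above 94.6% of genes tested by shCtrl mean and Foxa1 above 31.2%. Below Hnf4a came Onecut2 at 97.3 ± 26.2 TPM, Onecut1 at 38.9 ± 6.30 TPM, Foxa2 at 35.4 ± 3.30 TPM, Prox1 at 25.9 ± 11.01 TPM, Foxa3 at 24.7 ± 10.1 TPM and Cebpa at 21.6 ± 1.03 TPM. The ranges of Onecut1 and Foxa2, of Foxa2 and Prox1, of Prox1 and Foxa3, and of Foxa3 and Cebpa overlapped, so these neighbours in the order did not differ beyond their spread. In shTopors the order of means was Hnf4a, Onecut2, Foxa2, Foxa3, Onecut1, Cebpa, Prox1 and Foxa1, from 137 ± 58.9 to 1.60 ± 0.0820 TPM. Onecut1 stood above Foxa2 in mean in shCtrl and below it in shTopors, at 16.2 ± 9.18 against 31.5 ± 14.3 TPM, with ranges that overlapped in both groups.

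Among the FOXA pioneer factors, Foxa1 lay below both controls in both knockdown libraries, and Foxa2 and Foxa3 overlapped the controls. Foxa1 (ENSMUSG00000035451, mm10 chromosome 12, 57540628 to 57546916, minus strand) was at 6.20 and 8.80 TPM with the control hairpin and at 1.54 and 1.65 TPM with the Topors hairpin. Both knockdown libraries were low and close to each other, and the means were 4.70-fold apart. The log2 difference was -1.69 (SE 0.302, excess -1.51, adjusted p = 0.130 in limma's test), the largest of the 8 in size, and Foxa1 ranked 73 of all genes tested by p. Foxa2 (ENSMUSG00000037025, chromosome 2, 148042877 to 148046969, minus strand) was at 37.7 and 33.1 TPM with the control hairpin, 41.6 TPM in shTopors 1 and 21.3 TPM in shTopors 2. The first knockdown library was thus above both controls and the second below both. Its log2 difference was -0.24, an excess of -0.05, with a 95% interval of the difference from -1.06 to 0.59 (adjusted p = 0.762 in limma's test). Foxa3 (ENSMUSG00000040891, chromosome 7, 19013284 to 19023538, minus strand) was at 17.6 and 31.9 TPM with the control hairpin and 18.4 and 22.9 TPM with the Topors hairpin, so both knockdown values lay between the controls. Its log2 difference was -0.20, an excess of -0.02, with a 95% interval of the difference from -1.01 to 0.61 (adjusted p = 0.799 in limma's test). Both log2 differences were thus near the median of all genes, -0.18. The intervals of Foxa2 and Foxa3 include no difference and also a difference of 1 in the negative direction.

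Foxa1 made up a smaller part of FOXA transcripts in the knockdown libraries. Its share of the summed TPM of the FOXA genes was 10.1% and 11.9% in shCtrl and 2.5% and 3.6% in shTopors, with no overlap of the groups. The sum itself overlapped, at 61.5 and 73.7 TPM with the control hairpin and 61.5 and 45.9 TPM with the Topors hairpin, since Foxa2 held from 44.8% to 67.6% of it and Foxa3 from 28.6% to 49.9%. The difference in log2 change between the FOXA genes was not tested.

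Hnf4a, the nuclear receptor of the set, had the most similar controls and discordant knockdown libraries. Hnf4a (ENSMUSG00000017950, chromosome 2, 163506808 to 163572910, plus strand) was at 158 and 156 TPM with the control hairpin, 179 TPM in shTopors 1 and 95.3 TPM in shTopors 2. On the log2(TPM + 1) scale the controls were 0.015 apart and the knockdown libraries 0.90 apart. The log2 difference was -0.26 (SE 0.322, excess -0.08), with a 95% interval of the difference from -1.02 to 0.50 and an adjusted p = 0.711 in limma's test. Without shTopors 2 the log2 difference was 0.19, and without shTopors 1 it was -0.71, so the direction rested on which knockdown library was kept. Foxa2 turned with the same library, at 0.23 without shTopors 2 and -0.70 without shTopors 1, and Foxa3 turned with a control library, at 0.21 without shCtrl 2 and -0.61 without shCtrl 1. Its relative Hnf4g was listed at no more than 0.3% of their summed TPM in any library.

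Both ONECUT genes were lower in the knockdown libraries, each with its own low library. Onecut1 (ENSMUSG00000043013, chromosome 9, 74861921 to 74891781, plus strand) was at 34.5 and 43.4 TPM with the control hairpin, 9.74 TPM in shTopors 1 and 22.7 TPM in shTopors 2. The first knockdown library was the lower, and the knockdown libraries were 1.14 apart in log2. The means were 2.40-fold apart, with a log2 difference of -1.31 (SE 0.403, excess -1.13, adjusted p = 0.237 in limma's test). Onecut2 (ENSMUSG00000045991, chromosome 18, 64340020 to 64400987, plus strand) was at 78.7 and 115.8 TPM with the control hairpin, 40.8 TPM in shTopors 1 and 30.3 TPM in shTopors 2. Here the second knockdown library was the lower, and the means were 2.74-fold apart. The log2 difference was -1.42 (SE 0.297, excess -1.23, adjusted p = 0.165 in limma's test). Summed over both genes, ONECUT transcripts were at 113 and 159 TPM with the control hairpin and 50.5 and 53.0 TPM with the Topors hairpin. Onecut2 held 69.6% and 72.8% of that sum in shCtrl, 80.7% in shTopors 1 and 57.1% in shTopors 2, so the groups overlapped in the balance between the paralogs while they did not in the sum.

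Cebpa, the leucine zipper factor, and Prox1, the prospero homeobox factor, were both lower in shTopors 1 than in shTopors 2 and lower in both than in either control. Cebpa (ENSMUSG00000034957, chromosome 7, 35119293 to 35121928, plus strand) was at 20.9 and 22.4 TPM with the control hairpin and 8.05 and 11.6 TPM with the Topors hairpin. The controls were close, and the means were 2.20-fold apart. The log2 difference was -1.08 (SE 0.292, excess -0.90, adjusted p = 0.218 in limma's test). Prox1 (ENSMUSG00000010175, chromosome 1, 190118035 to 190170714, minus strand) was at 18.1 and 33.7 TPM with the control hairpin and 6.36 and 13.3 TPM with the Topors hairpin. Both groups were wide, and the means were 2.64-fold apart. The log2 difference was -1.33 (SE 0.429, excess -1.15, adjusted p = 0.249 in limma's test). Cebpa held 13.9% and 13.3% of the summed TPM of Cebpa, Cebpb, Cebpd and Cebpg in shCtrl and 6.6% and 8.6% in shTopors, while Cebpb, which encodes a C/EBP of injury and acute phase responses, held from 45.8% to 63.2% with overlap.

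When 1 library was left out, which assumes that the lone library of a group varies like the other group, calls appeared without a knockdown library and not without a control library. Without shTopors 1, Foxa1 and Onecut2 passed as lower (adjusted p = 0.00065 and 0.0003 in limma's test). Without shTopors 2, all 5 of the lower factors passed, with adjusted p from 1.21e-05 for Onecut1 to 0.00374 for Onecut2. Without shCtrl 1 or shCtrl 2 none of the 8 passed, with adjusted p = 0.455 and 0.872 for Foxa1. Across these settings the log2 difference ranged from -1.92 to -1.47 for Foxa1, from -1.69 to -1.14 for Onecut2 and from -1.32 to -0.85 for Cebpa. It ranged from -1.89 to -0.74 for Onecut1 and from -1.81 to -0.85 for Prox1, whose sizes without shTopors 1 were thus under those with all libraries by more than 1.5 times. The background of calls moved too, from 4 lower genes with all libraries to 901 without shTopors 1 and 1479 without shTopors 2.

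**Figure D2:**
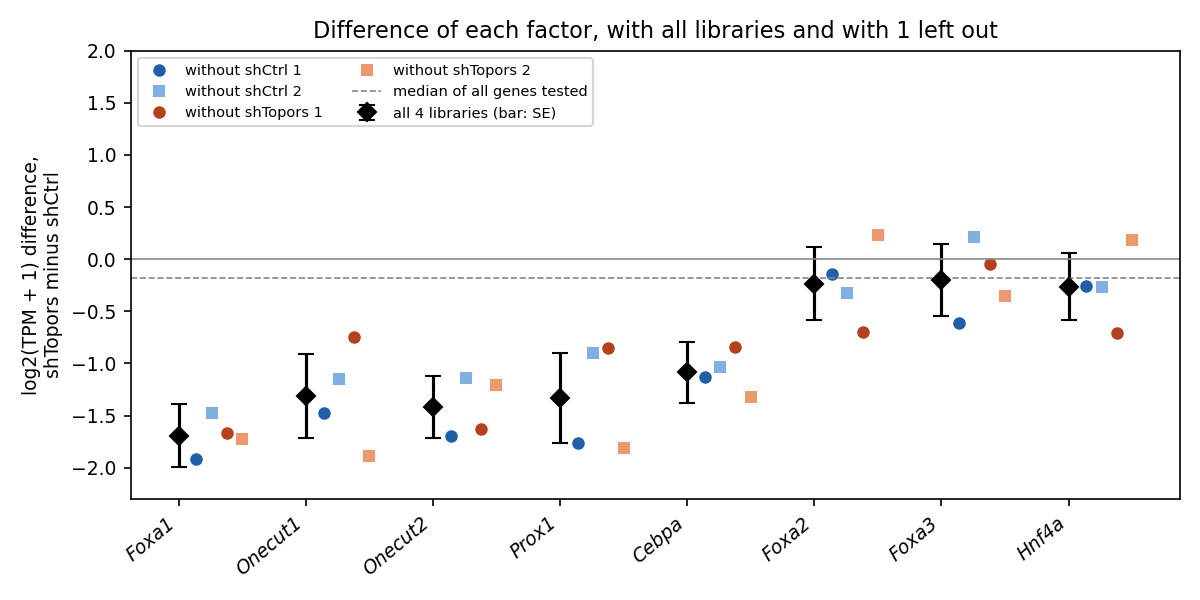
Difference of each factor in log2(TPM + 1), shTopors minus shCtrl, with all libraries (black diamonds, bars show the SE) and with 1 library left out (colored points). The 5 factors at left stay below 0 in every case, while Foxa2 and Hnf4a lie above 0 without shTopors 2 and Foxa3 without shCtrl 2.

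Patterns over the 4 libraries were compared by the Euclidean distance between log2(TPM + 1) values centred on each gene's mean, as a description over libraries that all genes share. Of the 28 pairs of factors, Foxa2 and Hnf4a were nearest (distance 0.125), followed by Onecut1 and Prox1 (0.403) and Foxa1 and Onecut2 (0.446). The farthest were Foxa2 and Prox1 (1.88). The paralogs Onecut1 and Onecut2 were 1.12 apart and Foxa1 and Foxa2 1.68 apart, so paralogs were not the nearest pairs. Among 9535 other genes that averaged 5 TPM or more and had no provisional symbol, the 2 nearest to each factor were Aspa and Fbp2 for Foxa1 (0.102 and 0.119), Rac1 and Mgmt for Foxa2 (0.039 and 0.052) and Cdc37l1 and Armcx3 for Foxa3 (0.055 and 0.1). They were Sipa1 and Foxp1 for Hnf4a (0.056 and 0.063), Irgm1 and Fam234b for Onecut1 (0.146 and 0.174) and Tmx4 and Arhgap36 for Onecut2 (0.036 and 0.111). They were Endod1 and Igsf11 for Cebpa (0.072 and 0.102) and Bambi and Map2k6 for Prox1 (0.088 and 0.144).

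Of 14 annotated genes that overlap a factor gene or lie within 10 kb of it, 6 reached a mean of 1 TPM, and none of these passed the threshold. Gm16551, a noncoding gene 1787 bases before Onecut1 on the same strand, was at 7.82 and 9.49 TPM with the control hairpin and 2.38 and 4.07 TPM with the Topors hairpin. Both genes were lowest in shTopors 1. The log2 difference of Gm16551 was -1.22 (SE 0.323, adjusted p = 0.215 in limma's test). Gm20649, a noncoding gene whose span overlaps 29556 bases of Onecut1 on the same strand, was at 0.809 and 1.70 TPM with the control hairpin and listed at 0 in both shTopors libraries, so reads of that region are hard to assign to either gene. Gm45091, an antisense gene overlapping 313 bases at the Cebpa start, was at 3.10 and 3.37 TPM with the control hairpin and 1.24 and 1.51 TPM with the Topors hairpin, below both controls as Cebpa was. Its log2 difference was -0.84 (SE 0.284, adjusted p = 0.264 in limma's test). The libraries were strand-specific, but no label gives the strand setting used in counting, so reads of Cebpa and Gm45091 could not be told apart with certainty.

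Next to Foxa2, an adjacent gene lay below both controls where the factor overlapped them, and next to Hnf4a an adjacent gene had the same order of libraries over a wider range. The noncoding 9030622O22Rik, 2674 bases from Foxa2 on the same strand, was at 24.9 and 34.1 TPM with the control hairpin and 11.3 and 13.5 TPM with the Topors hairpin. Its log2 difference was -1.18 (SE 0.288, adjusted p = 0.194 in limma's test). R3hdml, 4196 bases before the first Hnf4a start on the same strand, was at 11.8 and 11.2 TPM with the control hairpin, 48.9 TPM in shTopors 1 and 5.14 TPM in shTopors 2. It was highest where Hnf4a was highest and lowest where Hnf4a was lowest, with a log2 difference of 0.48 with all libraries and -1.02 without shTopors 1. Near Foxa3, Sympk and Irf2bp1 had overlapping groups, with log2 differences of -0.06 and -0.003. The antisense genes Hnf4aos and Prox1os were under 0.5 TPM in every library.

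**Figure D3:**
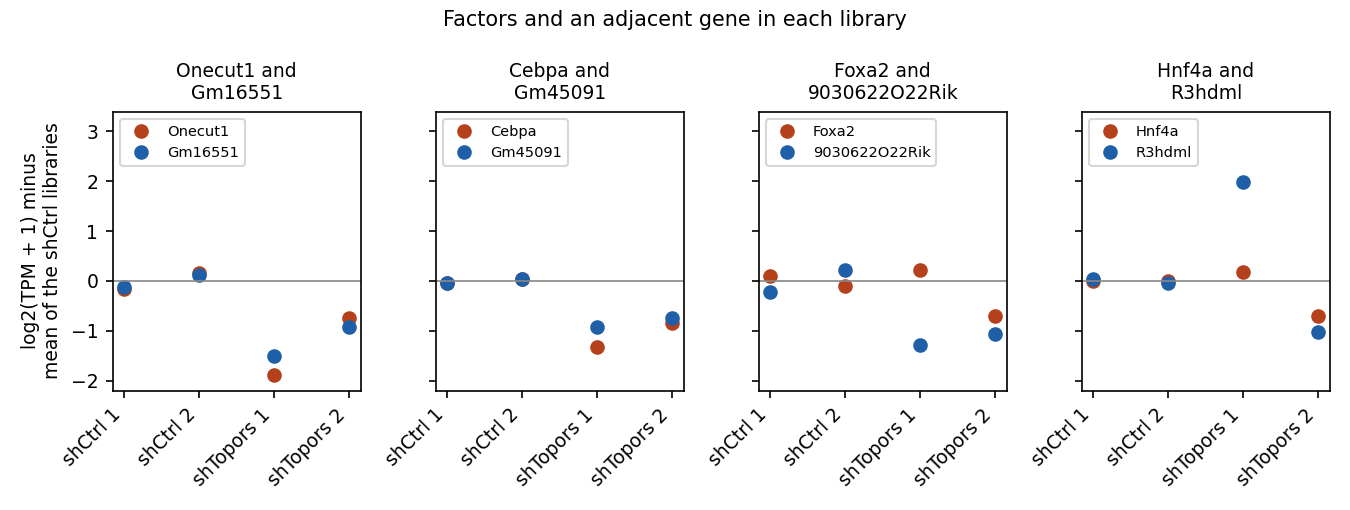
Log2(TPM + 1) of 4 factors (orange) and an adjacent gene (blue) in each library, minus the mean of the shCtrl libraries. Gm16551 and Gm45091 are low in both shTopors libraries with Onecut1 and Cebpa, 9030622O22Rik is low in both while Foxa2 is not, and R3hdml is high in shTopors 1 alone.

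Other liver transcription factors included genes below both controls and genes that overlapped them, and none passed the threshold. Of 23 other liver factors, 20 were tested and none passed in either direction. At an unadjusted p under 0.05, 9 were lower and none higher (10.7% and 3.98% of all genes tested). Below both controls lay 13, and none lay above (35.2% and 14.6% of all genes). Their median log2 difference was -0.59, against -0.18 for all genes tested. Sox9, a factor of bile duct and progenitor cells, was at 84.0 ± 10.1 TPM with the control hairpin and 34.5 ± 10.7 TPM with the Topors hairpin (SD, n = 2), with a log2 difference of -1.29 (SE 0.296). Klf15, a factor of amino acid and glucose metabolism, was at 46.1 ± 17.5 and 18.0 ± 1.16 TPM, Gata6, a zinc finger factor of endoderm, at 26.5 ± 2.15 and 11.6 ± 4.04 TPM, and Atf5 at 63.0 ± 2.73 and 24.2 ± 17.0 TPM. The adjusted p of these 4 genes was from 0.176 to 0.234 in limma's test. The log2 difference of Atf5 was -1.53 with all libraries and -0.78 without shTopors 2.

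Among 30 genes listed as relatives of the factors, by forkhead, C/EBP, ONECUT, HNF and prospero names, 22 were tested, 12 lay below both controls (35.2% of all genes did) and 2 above. The close relatives Cebpb, Cebpd, Cebpg and Prox2 overlapped the controls, and Onecut3, Hnf4g and Cebpe were not tested. Cebpz, which was listed for its symbol and is not taken here as a close relative, lay above both controls. None of the 22 tested relatives passed, and 8 were lower and none higher at an unadjusted p under 0.05 (10.7% and 3.98% of all genes). Their median log2 difference was -0.68. This list shares 3 genes with the list of other liver factors. The 4 with the smallest p were Foxq1 (21.6 ± 0.0364 TPM with the control hairpin and 8.40 ± 4.05 TPM with the Topors hairpin), the FOXO factor gene Foxo3 (44.7 ± 6.38 and 23.0 ± 0.772 TPM), the stress-response C/EBP gene Ddit3 (60.9 ± 0.679 and 33.6 ± 8.07 TPM) and Foxj2 (12.9 ± 1.01 and 6.07 ± 2.58 TPM). Their adjusted p was from 0.215 to 0.258 in limma's test. The log2 difference of Foxq1 was -1.34 with all libraries and -0.88 without shTopors 2, and that of Foxj2 was -1.02 and was -0.64 without shTopors 1. Of 22 genes listed as coregulators, 21 were tested and none passed. The list also holds Tead1, Tead2, Tead3 and Tead4, which encode DNA-binding factors and are not taken here as coregulators of the 8. At an unadjusted p under 0.05, 6 of the 21 were lower, Tead2 among them, and none higher (10.7% and 3.98% of all genes tested). Below both controls lay 13, with Tead1, Tead2 and Tead3 among them, and none lay above (35.2% and 14.6% of all genes). The 21 had a median log2 difference of -0.49. They included the nuclear receptor coactivator gene Ncoa1 at 8.99 ± 0.946 and 4.71 ± 0.426 TPM, the corepressor gene Tle3 at 14.7 ± 1.43 and 8.19 ± 0.456 TPM, and Wwtr1, the gene of the YAP paralog TAZ, at 30.9 ± 5.51 and 17.7 ± 2.26 TPM.

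**Figure D4:**
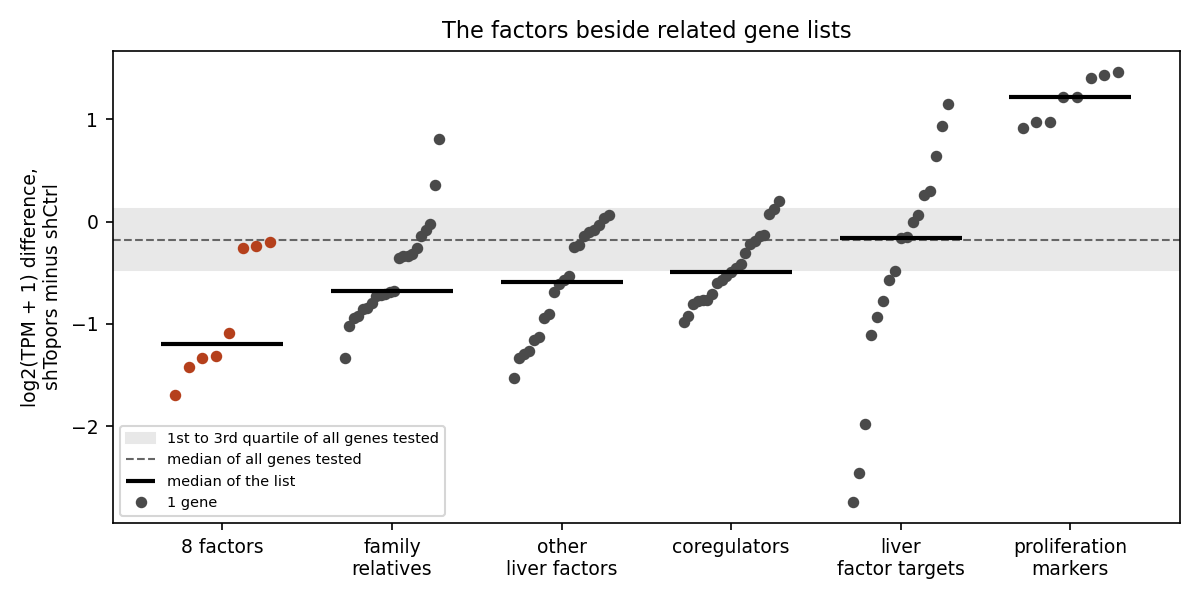
Log2(TPM + 1) difference of each tested gene, shTopors minus shCtrl, for the 8 factors (orange) and 5 related lists (grey), with list medians as black bars and the median of all genes tested as a dashed line and the interquartile range as a band. The median is -1.20 for the factors, -0.68 for relatives, -0.59 for other liver factors, -0.49 for coregulators, -0.16 for targets and 1.22 for proliferation markers.

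Genes widely cited as targets of the factors lay on both sides of the controls. Of 35 such genes, 18 had a mean under 1 TPM and were not tested, and among those were Cps1, Tat, G6pc, Pck1, Cyp7a1 and Otc, genes of mature hepatocyte metabolism. Of the 17 tested none passed, and 4 were lower and 1 higher at an unadjusted p under 0.05 (10.7% and 3.98% of all genes). The groups overlapped for 12 of the targets, and for 6788 of all 13509 genes tested. The median log2 difference of the targets was -0.16, near that of all genes. Ttr, which encodes the carrier transthyretin and is a classic FOXA and HNF4A target, was at 1119 and 2168 TPM with the control hairpin and 195 and 410.3 TPM with the Topors hairpin. Both knockdown libraries were low, and the log2 difference was -2.46 (SE 0.425, adjusted p = 0.129 in limma's test). With 1 library left out it ranged from -2.99 to -1.92, and Ttr passed without either knockdown library and not without either control. Slc2a2, the gene of the glucose transporter GLUT2, was at 76.9 and 178 TPM and at 39.7 and 72.5 TPM, with a log2 difference of -1.11 (SE 0.451, adjusted p = 0.326). It was -0.51 without shCtrl 2, -0.68 without shTopors 1, -1.54 without shTopors 2 and -1.71 without shCtrl 1, so its size rested on single libraries. Mttp, whose product loads lipid onto apolipoprotein B, was on the other side of the controls, at 3.33 and 3.29 TPM with the control hairpin and 6.83 and 10.7 TPM with the Topors hairpin, a log2 difference of 1.15 (SE 0.316, adjusted p = 0.222).

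**Figure D5:**
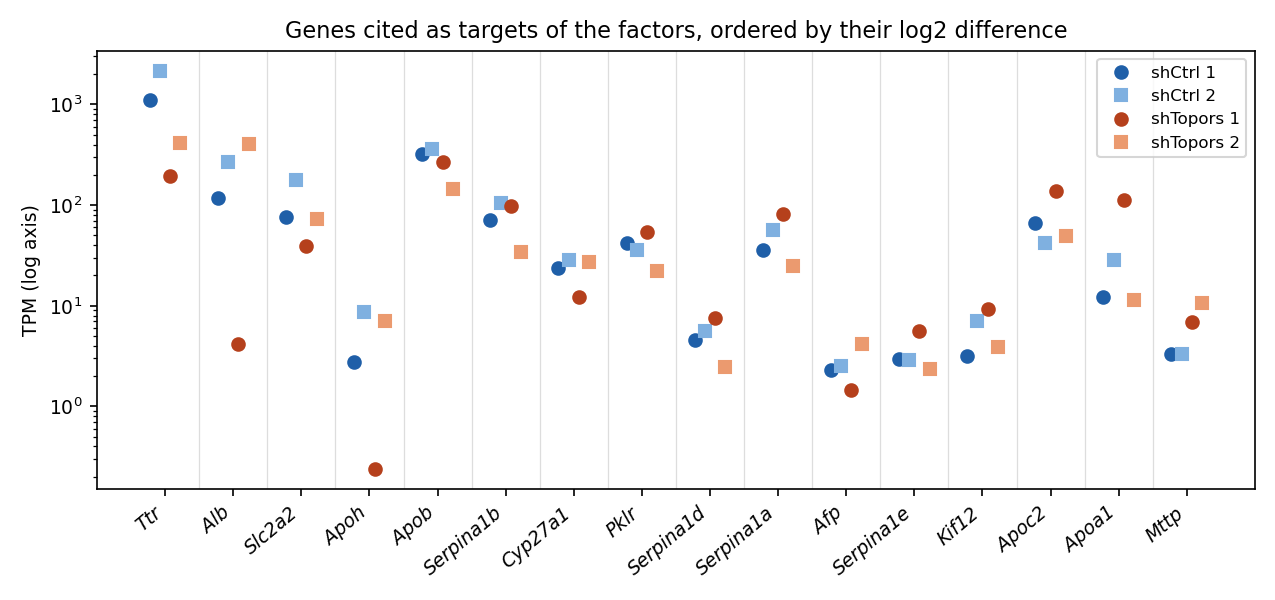
TPM on a log axis in each library for 16 of the 17 tested genes cited as targets of the factors, ordered by their log2 difference. Ttr, Slc2a2 and Apob are lower in both shTopors libraries, Mttp is higher in both, Alb is far lower in shTopors 1 than in shTopors 2, and Apoa1 is far higher.

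Defining hepatocyte markers were present only in part. Of 10 markers in the table, Cps1, Tat, G6pc and Fgb had means under 1 TPM and the other 6 were tested, of which Apob at 339.5 ± 28.7 and 207 ± 89.4 TPM, Trf at 1917 ± 512 and 1278 ± 135 TPM and Ttr were lower in both knockdown libraries. None passed. Without shTopors 2 the log2 difference of Apob went from -0.78 to -0.33, and without shCtrl 2 that of Trf went from -0.56 to -0.29. Of the markers, 9 are also in the target list. Apoa1, the apolipoprotein A-I gene, was at 12.3 and 28.4 TPM with the control hairpin, 113 TPM in shTopors 1 and 11.5 TPM in shTopors 2, and Alb was low in shTopors 1 at 4.15 TPM and high in shTopors 2 at 402 TPM. For Serpina1a, whose close copies make read assignment uncertain, levels were 35.9 and 56.6 TPM and at 80.8 and 24.98 TPM. So Apoa1 and Serpina1a were highest where Hnf4a and Foxa2 were highest, and Alb was lowest there. Of 8 bile duct markers 7 were tested, none passed, 3 lay below both controls and 1 above (35.2% and 14.6% of all genes). They summed to 1028 and 1482 TPM with the control hairpin and 1921 and 1132 TPM with the Topors hairpin, with Krt19 at 1396 TPM in shTopors 1 and from 296 to 345 TPM elsewhere. Summed markers of stellate cells and fibroblasts (12 genes) were at most 1.2 TPM, of endothelium (8 genes) at most 0.228 TPM and of leukocytes (8 genes) at most 1.96 TPM in any library, and 6 to 9, 5 to 6 and 3 to 5 of them were at 0. All 8 proliferation markers had an unadjusted p under 0.05 on the higher side, which 3.98% of all genes tested reached, and none passed. Their sum was 80.9 and 107 TPM with the control hairpin, 287.5 TPM in shTopors 1 and 157 TPM in shTopors 2.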

How the data were processed

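RNA of 4 libraries was ribosome-depleted and sequenced with strand information, per the labels. The deposited values are TPM for each gene in each library, computed by the authors. According to the submitters' processing notes, the tools were HISAT2, HTSeq, DESeq2 and StringTie with the genome build mm10, with neither versions nor roles, and which tool wrote the TPM is not stated. The table had 52633 rows, and 3 identifiers that stood on several rows were summed. Gene positions are from GENCODE M21 (mm10) and promoter sequences from RefSeq (GRCm38.p6).

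A linear model on log2(TPM + 1) was fitted in limma 3.58.1 (R 4.3.3) using the mean-variance trend, for all genes that averaged 1 TPM or more, with Benjamini-Hochberg adjustment over them and a threshold of 0.05. Lists are given by counts and medians. Named genes are the 8 factors, Topors, up to 4 genes per list with the smallest p, tested hepatocyte markers, the 2 genes nearest in pattern to each factor, and genes within 10 kb, and some genes that the rule names are not reported here. Cebpb and the other close relatives, the named genes under 1 TPM and the pairs of factor and neighbour that are plotted were chosen after their values were seen. The members and lists were chosen with earlier results of these data known. The fit was tested on simulated data. Alternatives were other pseudocounts, filters, scalings and variance models, a term for replicate number, and leaving out single libraries. Scripts ran in Python 3.11.15.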

Additional observations from a re-analysis of the deposited data

How the results depend on the processing

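TPM keeps no depth, so how depth limits each value is unknown, and 2 libraries per group leave 2 residual degrees of freedom. With all libraries 1 gene was called higher and 4 lower in limma's test, with 1984 genes at an unadjusted p under 0.05. The higher count was 0 without a filter, when genes had to average 5 TPM, with median-of-ratios size factors, with quantile normalization and when small RNAs and mitochondrial genes were left out of the scaling. The lower count was 0 without a filter and 1 under each of those other 4 settings, with 1464 to 2730 genes at an unadjusted p under 0.05 across the 5. With a replicate block, the library number as a term, 6 were higher and 27 lower, and none of the 8 factors was called. Topors and the target Ttr passed with the block (adjusted p = 0.0498 and 0.0295 in limma's test) and did not without it (0.0823 and 0.129). The numbers are not said to pair libraries, and deviations of same-numbered libraries from their group means correlated at 0.199 across genes. With 1 library left out, the counts ranged from 0 to 687 higher and 0 to 1479 lower, and lower factors from 0 to 5. Foxa1, Onecut1, Onecut2, Cebpa and Prox1 kept a negative difference under all alternatives run, and Foxa1 was not tested where genes had to average 5 TPM. The difference of Foxa1 was -0.91 with a pseudocount of 5 and -2.14 with 0.1.

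Some log2 differences turned, and the cause was not tested. With 1 library left out, the lowest and highest values were -0.70 and 0.23 for Foxa2, -0.61 and 0.21 for Foxa3, -0.71 and 0.19 for Hnf4a, -5.12 and 1.17 for Alb, -0.66 and 2.53 for Apoa1 and -0.83 and 0.83 for Serpina1a. They were -0.70 and 0.23 for Rac1, -0.76 and 0.22 for Mgmt, -0.56 and 0.26 for Cdc37l1, -0.64 and 0.30 for Armcx3, -0.75 and 0.13 for Sipa1 and -0.67 and 0.16 for Foxp1. For neighbours they were -0.0723 and 0.0659 for Irf2bp1, -0.42 and 0.31 for Sympk and -1.02 and 1.99 for R3hdml. With median-of-ratios size factors the values were 0.0349 for Cdc37l1, 0.19 for Serpina1a, 0.17 for Irf2bp1 and 0.13 for Sympk. With quantile normalization they were 0.0728 for Armcx3, 0.12 for Serpina1a, 0.19 for Irf2bp1 and 0.0405 for Sympk. With a pseudocount of 5 that of Serpina1a was 0.0151.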
